A study of Manihot esculenta with 9 samples.

Results

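The gene table of the cassava leaf libraries lists 42 genes described as pectin methylesterase inhibitors (PMEIs) that are not among the 89 *MePMEs* of the study, and 32 of them had at least 1 read. They were chosen by description. Of the 33033 genes in the deposited table, 76 carried the words pectin methylesterase inhibitor or pectinesterase inhibitor, and 34 of these were *MePMEs* and were left out. No expression value was used in the choice. The description comes with the nearest Arabidopsis gene that the table gives. For 40 of the 42 genes it reads plant invertase/pectin methylesterase inhibitor superfamily protein, and for the other 2 it reads pectin methylesterase inhibitor 2. The superfamily holds inhibitors of both enzymes, so the description does not tell which of them a given cassava protein binds. These genes are called PMEI genes here.

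Pectin is secreted into the cell wall in a methylesterified form, and pectin methylesterases (PMEs) remove the methyl groups there. Demethylesterified stretches can be crosslinked by calcium, which stiffens the wall, or can be cut by polygalacturonases and pectate lyases. PMEIs are small secreted proteins that bind a PME and block its active site, so that the balance of both protein families sets where and how far pectin is demethylesterified. In type-Ⅰ PMEs a related PMEI domain precedes the enzyme as a pro-region. Related proteins of the same fold inhibit cell wall and vacuolar invertases, which split sucrose.

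Mature leaves of wild-type cassava seedlings, propagated as stem cuttings in sterile bottles of MS medium, were sequenced by RNA-seq. Seedlings aged 60 days stayed in MS medium alone (MS control), or received ABA to 50 μmol/L or PEG6000 to 7% in the medium for 48 h, with 3 libraries in each group. ABA is the hormone that closes stomata, and PEG is an osmotic agent that withdraws water. The study names the plants as the line TM60444 and the libraries as biological replicates, but separate plants per library are not stated, so the p-values measure the spread between these libraries, which may be technical. Total counts were 13923803 to 17108746 per library.

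The libraries carried leaf transcripts, as the summed level of 3 genes for the small chain of rubisco was 3670 to 4210 FPKM in the MS control, 886 to 992 FPKM under ABA and 7770 to 8290 FPKM under PEG. Of these 3 genes, 2 were lower under ABA and 1 did not pass the test. Under PEG 2 were higher and 1 was lower. The 12 genes described as light-harvesting chlorophyll or chlorophyll a-b binding summed to 224 to 244 FPKM in the MS control, 144 to 155 FPKM under ABA and 528 to 681 FPKM under PEG. Of 10 of them tested, 6 were lower and 0 higher under ABA, and 6 were higher and 0 lower under PEG. FPKM is the authors' read count scaled to gene length and sequencing depth, which allows levels of different genes to be compared. The summed level of 73 genes with cyclin in their description was 525 to 542 FPKM in the MS control, 579 to 584 FPKM under ABA and 788 to 802 FPKM under PEG. Of 67 of them tested, 38 were higher and 8 lower under ABA (median log2 fold change 0.45). Under PEG 51 were higher and 8 lower (median 1.33). Of 48 genes tested that had late embryogenesis abundant (LEA) or dehydrin in their description, known as protectants of drying cells, 8 were higher and 33 lower in the PEG libraries than in the MS control. Under ABA 17 of them were higher and 16 lower. The summed level of all 82 such genes was 1460 to 1860 FPKM in the MS control, 2280 to 2350 FPKM under ABA and 1090 FPKM in every PEG library. The 17 genes described as phloem protein 2, a protein known from sieve elements, summed to 280 to 287 FPKM, 330 to 333 FPKM and 256 to 258 FPKM in the same order of groups. Most of those tested did not follow the sum, as 3 of 15 rose and 6 fell under ABA (median log2 fold change -0.02), and 6 rose and 4 fell under PEG (median 0.09). The 98 genes with the words oleosin or seed storage anywhere in their description summed to 2920 to 3190, 2530 to 2550 and 2260 to 2280 FPKM in that order. For 24 genes with pollen-specific or pollen Ole e 1 the sums were 1380 to 1390, 1010 to 1040 and 698 to 739 FPKM. Of 43 of the former tested, 16 rose and 19 fell under ABA, and 16 rose and 22 fell under PEG. Of 12 of the latter, 4 rose and 5 fell, and 3 rose and 7 fell. Both lists were made by these words alone, which can be part of a wider family name. Whether their genes are specific to seed or pollen, and whether these transcripts came from leaf cells, was not tested. All directions below follow the labels of the libraries. If the MS control and PEG labels were exchanged, each PEG minus MS control value would change its sign, and each value under ABA would be replaced by the negative of PEG minus ABA. The part of these differences in the levels of PMEI genes was not tested. In such bulk leaf samples, fewer cells of a type and less RNA per cell cannot be told apart.

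Some genes had 1 library far from the others of its group. In 309 of the 21073 genes with at least 50 reads in a library (1.47%), 1 library lay under 25% of both other libraries of its group or over 4 times both. In each of the 9 libraries 30 to 50 genes were low in this way. Of the 17 PMEI genes with at least 50 reads in a library, 3 were among these genes. *Manes.02G034800* had 4 reads in PEG replicate 1 against 312 and 273 in the other PEG libraries. *Manes.14G034600* had 294 reads in MS control replicate 3 against 1475 and 1585, and 221 reads in PEG replicate 1 against 2477 and 2188. *Manes.16G091600* had 21 reads in PEG replicate 2 against 493 and 494, and its MS control libraries had 66, 18 and 197 reads. The cause was not tested. Values of these 3 genes are given below with and without the libraries concerned, and for *Manes.16G091600* also without MS control replicate 2, which is low but within the 25% limit. All were picked after their values were seen.

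PMEI transcripts were abundant in mature leaves, and a few genes held most of them. Of the 42 genes, 10 had no read in any library, 10 had 1 to 38 reads in all and were too low for edgeR's filter, and 22 (52.4%) were tested with edgeR's quasi-likelihood test, against 72.6% of all genes. Rose and fell are used of genes whose p, adjusted over all genes tested, was under 0.05. In 21 of the 42 the mean of some group was 1 FPKM or more. The summed level of all 42 genes was 604, 565 and 483 FPKM in the MS control libraries, 435, 425 and 436 FPKM under ABA, and 645, 749 and 797 FPKM under PEG. The ABA libraries were the lowest and the PEG libraries the highest, with no overlap of the groups. FPKM has no scaling between libraries beyond depth. In fits with no scaling beyond library size, the median log2 fold change of all genes was -0.07 under ABA and 0.14 under PEG. The sums were not corrected for this shift, and the MS control and PEG lay as near as 604 and 645 FPKM. Without *Manes.02G034900*, which had the highest level, the sums were 299 to 393 FPKM in the MS control, 287 to 293 FPKM under ABA and 356 to 500 FPKM under PEG, so that the MS control and PEG overlapped. Without the 3 uneven genes the sums were 418 to 452 FPKM, 348 to 364 FPKM and 576 to 593 FPKM, in the same order.

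**Figure D1:**
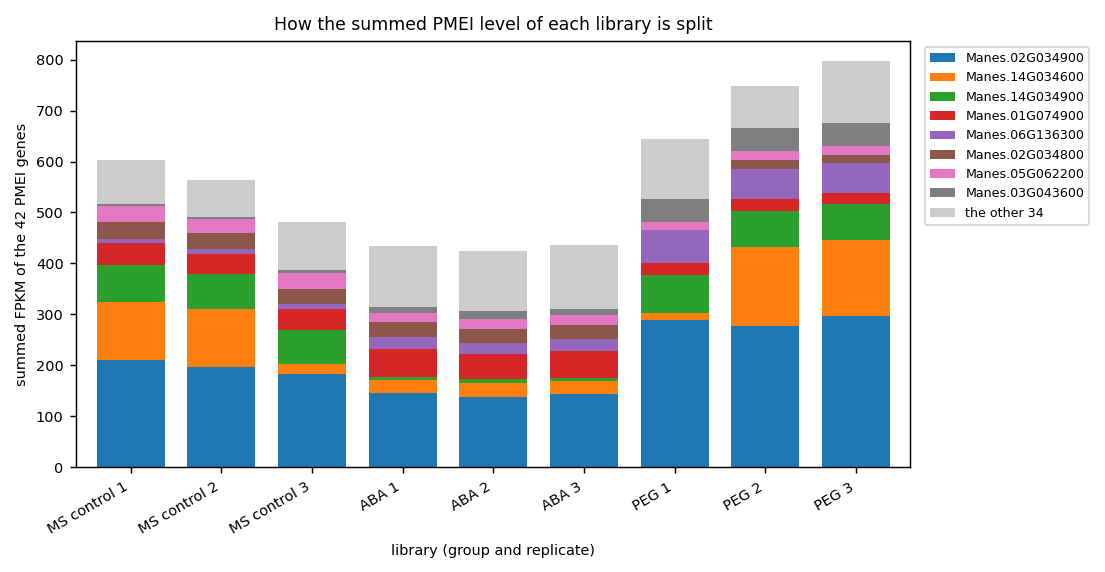
Stacked bars show the summed FPKM of the 42 PMEI genes in each of the 9 libraries, split into the 8 genes with the highest mean and the other 34. *Manes.02G034900* held 32.5% to 44.9% of the sum in every library, and the narrow *Manes.14G034600* segment of MS control replicate 3 and PEG replicate 1 accompanies their lower sums.

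*Manes.02G034900* was the most abundant PMEI gene in every library. It is on chromosome 2 at 2705713 to 2706795 in cassava genome version 6.1 and is nearest to AT5G62360 of Arabidopsis. Its levels were 211, 196 and 183 FPKM in the MS control, 146, 138 and 143 FPKM under ABA, and 289, 277 and 297 FPKM under PEG. Every ABA library lay below and every PEG library above every MS control library. On the log2 scale the difference from the MS control was -0.40 under ABA (SE, the standard error, 0.05, edgeR adjusted p = 1.21e-05), and 0.42 under PEG (SE 0.05, edgeR adjusted p = 7.1e-06). The gene held 34.6% to 38.0% of the summed PMEI level in the MS control, 32.5% to 33.6% under ABA and 37.0% to 44.9% under PEG.

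Under ABA the PMEI genes moved in both directions. The largest fall was that of *Manes.14G034900*, and the largest rise was that of *Manes.15G132300*, among the 22 genes tested. Of these, 9 rose and 7 fell, together 72.7%, while 66.3% of all genes tested changed (32.9% rose and 33.4% fell), so the share of PMEI genes that changed was close to that of all genes. Changes of at least 2-fold were found for 9 PMEI genes (40.9%), 7 upwards and 2 downwards, while 19.4% of all genes tested changed as much, 10.6% upwards and 8.79% downwards. The median log2 fold change was 0.19 over the PMEI genes tested and 0.00 over all genes, and the median size among genes that passed was 1.13 and 0.60. FPKM ranges of the groups did not overlap for 19 of the 22 genes, 10 higher and 9 lower, against 70.4% of all genes tested, 30.9% higher and 39.6% lower. The exact permutation test of 3 libraries against 3 (two-sided) gives p = 0.1 at best, so that it cannot pass alone. Among the 22, *Manes.05G058600* and *Manes.05G047300* met the count limit of the filter in all 3 libraries of the MS control and of no other group, so their level there favoured their testing. The filter counts libraries of any group, and *Manes.05G047300* also had 16 and 25 reads in PEG replicates 1 and 2. The 7 that fell, and the 2 that fell at least 2-fold, include *Manes.05G058600*, whose fall the filter favoured.

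*Manes.14G034900* (chromosome 14, 2832384 to 2833323) also has AT5G62360 as its nearest Arabidopsis gene. It was high in the MS control, with 72.7, 69.4 and 66.7 FPKM, and had 73.6, 70.0 and 72.0 FPKM under PEG, where the ranges overlapped. Under ABA it had 6.66, 6.44 and 6.99 FPKM, far below all other libraries. It was 9.94-fold lower under ABA, which is -3.31 on the log2 scale (SE 0.06, edgeR adjusted p = 1.17e-12). The PEG minus MS control value was -0.09 (SE 0.05, edgeR adjusted p = 0.113) and was 0.05 with no scaling beyond library size. It fell from 12% to 13.8% of the summed PMEI level in the MS control to 1.52% to 1.60% under ABA.

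Under PEG, 8 of the 22 PMEI genes tested rose and 8 fell, together 72.7%, against 70.7% of all genes tested, of which 35.6% rose and 35.1% fell. Changes of at least 2-fold were found for 10 genes (45.5%), 6 upwards and 4 downwards, while 22.1% of all genes tested changed as much, 12.4% upwards and 9.72% downwards. The median log2 fold change was 0.19, against 0.00 over all genes, and the median size among genes that passed was 1.32 against 0.65. Groups did not overlap for 16 genes, 8 higher and 8 lower, against 74.7% of all genes tested, 45.5% higher and 29.2% lower. The 3 largest rises were those of *Manes.15G132300*, *Manes.03G043600* and *Manes.06G136300*, and the largest fall was that of *Manes.06G136200*. *Manes.05G058600* is again among those that fell, and among the 4 that fell at least 2-fold. Both comparisons use the same MS control libraries, so their values are not independent of each other.

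*Manes.15G132300* (chromosome 15, 10084555 to 10085598), whose nearest Arabidopsis gene is AT1G14890, was low in the MS control with 1.86, 1.35 and 0.702 FPKM. It had 4.58, 5.13 and 5.91 FPKM under ABA and 12.8, 14.3 and 12 FPKM under PEG. The 3 groups did not overlap, with PEG above ABA and ABA above the MS control. The log2 fold change was 2.08 under ABA (SE 0.24, edgeR adjusted p = 1.27e-05) and 3.21 under PEG (SE 0.22, edgeR adjusted p = 9.9e-08), and the PEG minus ABA value was 1.13 (SE 0.17, edgeR adjusted p = 0.000103). *Manes.17G081300* on chromosome 17, the other gene nearest to AT1G14890, was higher in the MS control, at 8.0 ± 0.413 FPKM (mean ± SD, n = 3). It had 12.6 ± 0.893 FPKM under ABA and 10.8 ± 0.951 FPKM under PEG, with all treated libraries above the MS control. Its rises were small, 0.71 on the log2 scale under ABA (edgeR adjusted p = 6.27e-05) and 0.30 under PEG (edgeR adjusted p = 0.0182), and the latter did not pass with DESeq2 (adjusted p = 0.0632), without MS control replicate 2 (0.27) or without PEG replicate 3 (0.23). Unlike *Manes.15G132300* it was lower under PEG than under ABA, by a log2 value of -0.41 (edgeR adjusted p = 0.00231).

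**Figure D2:**
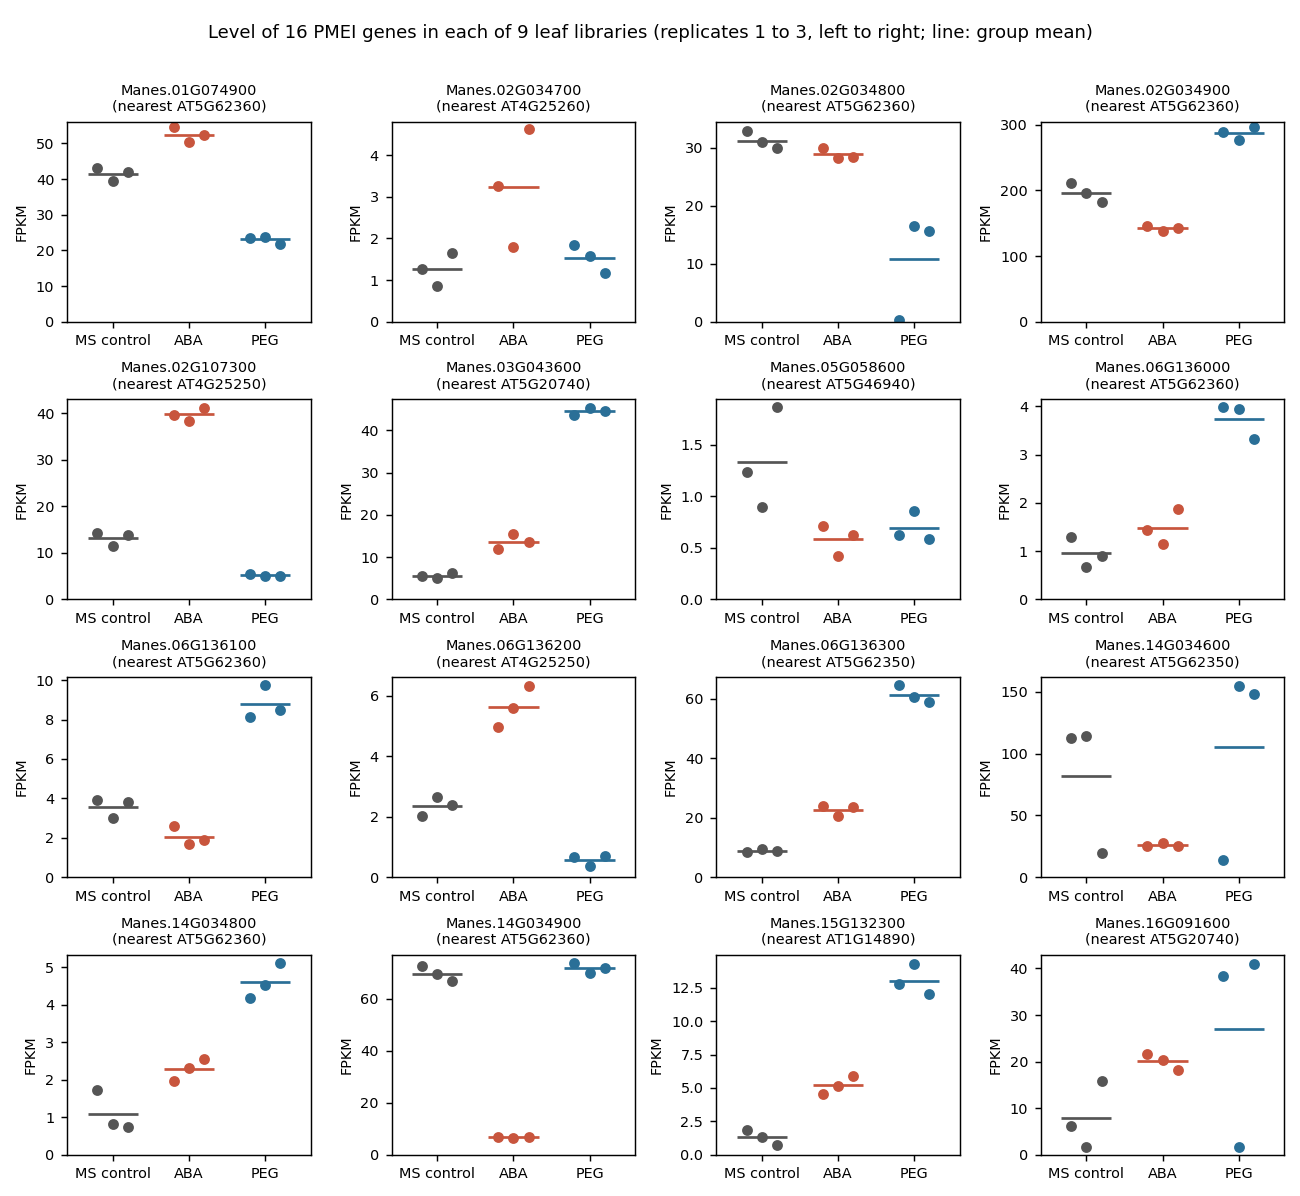
Points give the FPKM of 16 PMEI genes in each library, with replicates 1 to 3 from left to right within a group and a line at the group mean. The replicates of *Manes.14G034900* and *Manes.03G043600* lie close together, while single libraries of *Manes.02G034800*, *Manes.14G034600* and *Manes.16G091600* lie near 0 or far below their group.

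The 2 genes nearest to AT5G20740, known in Arabidopsis as PMEI3 and studied there for the wall changes that precede organ outgrowth at the shoot apex, had their highest libraries under PEG. *Manes.03G043600* (chromosome 3, 3515506 to 3516370) had 5.48, 5.05 and 6.14 FPKM in the MS control, 11.9, 15.5 and 13.6 FPKM under ABA, and 43.6, 45.3 and 44.5 FPKM under PEG. The 3 groups were well apart. Its log2 fold change was 1.36 under ABA (SE 0.11, edgeR adjusted p = 5.85e-07) and 2.86 under PEG (SE 0.10, edgeR adjusted p = 4.02e-10), and it was higher under PEG than under ABA by 1.5 (edgeR adjusted p = 2.99e-08). *Manes.16G091600* (chromosome 16, 24836053 to 24836813) had 6.23, 1.59 and 15.8 FPKM in the MS control, 21.6, 20.4 and 18.1 FPKM under ABA, and 38.3, 1.61 and 41.0 FPKM under PEG. Every ABA library lay above every MS control library, and the PEG libraries fell on both sides. Its fitted values of 1.38 under ABA (edgeR adjusted p = 0.162) and 1.61 under PEG (edgeR adjusted p = 0.0976) did not pass. Without PEG replicate 2 they were 1.38 (edgeR adjusted p = 0.0236) and 2.17 (edgeR adjusted p = 0.00241), and PEG minus ABA was 0.79 and did not pass (edgeR adjusted p = 0.143). With MS control replicate 2 left out as well they were 0.90 and 1.69, and PEG minus ABA was 0.79. These are given as a description without p, as both libraries were picked by this gene's own values. The fit without PEG replicate 2 alone shares this limit. This gene was named after its values were seen.

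AT4G25250, known in Arabidopsis as PMEI4 and studied there in the growth of the dark-grown hypocotyl, was nearest to 3 PMEI genes, and both of those tested rose under ABA and fell under PEG. *Manes.02G107300* (chromosome 2, 8000233 to 8000955) had 14.3, 11.4 and 13.8 FPKM in the MS control, 39.7, 38.4 and 41.2 FPKM under ABA, and 5.56, 5.01 and 5.06 FPKM under PEG. *Manes.06G136200* (chromosome 6, 24141637 to 24142272) was lower in every group, with 2.03, 2.64 and 2.40 FPKM, 4.98, 5.61 and 6.33 FPKM, and 0.650, 0.368 and 0.695 FPKM. In both genes all ABA libraries were above, and all PEG libraries below, all MS control libraries. *Manes.02G107300* rose by 1.65 under ABA on the log2 scale (SE 0.09, edgeR adjusted p = 1.74e-08) and fell by 1.47 under PEG (SE 0.11, edgeR adjusted p = 1.61e-07). *Manes.06G136200* rose by 1.31 (SE 0.19, edgeR adjusted p = 9.55e-05) and fell by 2.17 (SE 0.29, edgeR adjusted p = 3.73e-05), the latter on 18 reads over the 3 PEG libraries. The PEG minus ABA values were -3.13 for *Manes.02G107300* (edgeR adjusted p = 5.94e-11) and -3.48 for *Manes.06G136200* (edgeR adjusted p = 1.06e-07). *Manes.14G034700*, the third gene, had 38 reads in all and was not tested.

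Many PMEI genes lay side by side. Taking genes of 1 chromosome within 10 gene models of each other as neighbours, 17 of the 42 formed 6 groups of 2 to 4 genes. The groups on chromosomes 6 and 14 each hold 4 genes, in 20 kb and 8.73 kb, with the same nearest Arabidopsis genes in opposite order, namely 2 genes nearest to AT5G62360, 1 nearest to AT4G25250 and 1 nearest to AT5G62350. The groups on chromosomes 1 and 2 both start with a gene nearest to AT4G25260, followed by 1 and 2 genes nearest to AT5G62360. The sources used here do not say how reads matching more than 1 copy were counted, so part of a value may belong to another copy. Neighbours differed widely in level, and those of a group did not all move in 1 direction.

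**Figure D3:**
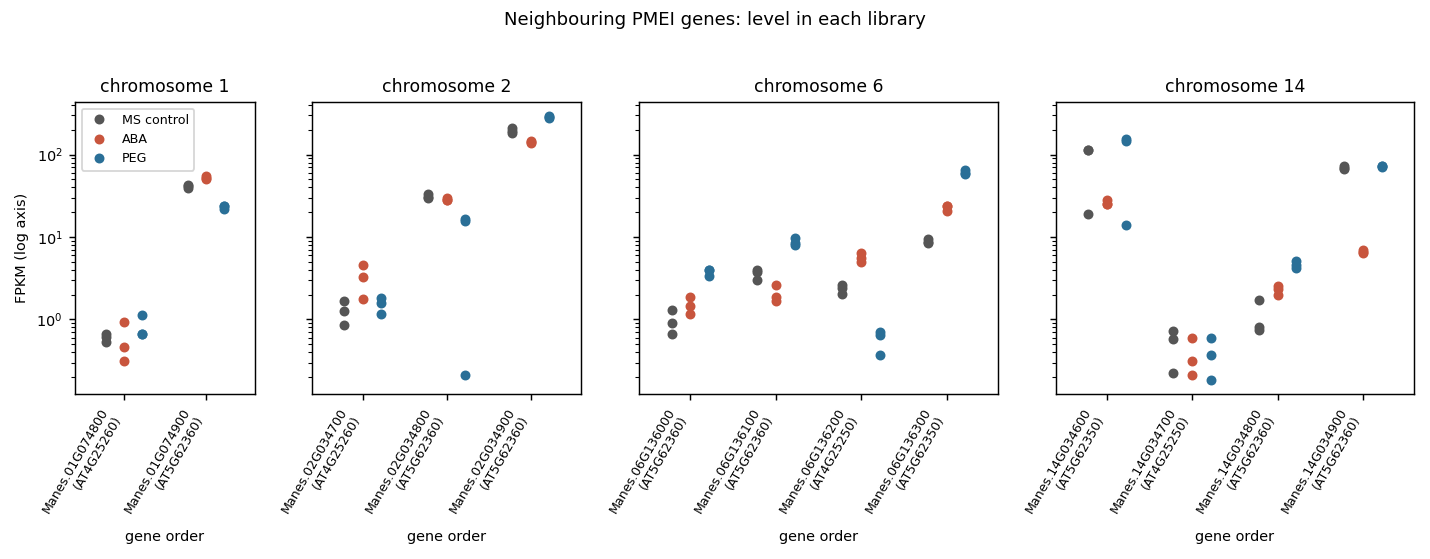
Each point is the FPKM of 1 library on a log axis, for the PMEI genes of 4 chromosomes in their order along the chromosome, with the MS control in grey, ABA in red and PEG in blue. On chromosome 14 the 2 outer genes reach 72.7 FPKM or more in the MS control while the 2 inner genes stay at 1.74 FPKM or less there.

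On chromosome 14, *Manes.14G034600* (2824591 to 2825524, nearest to AT5G62350) had 113, 114 and 19.2 FPKM in the MS control, 24.9, 28.0 and 25.1 FPKM under ABA, and 14, 155 and 148 FPKM under PEG. The ABA libraries lay close together, and MS control replicate 3 and PEG replicate 1 lay below them. With all libraries neither the ABA value of -1.59 (SE 0.75, edgeR adjusted p = 0.0813) nor the PEG value of 0.23 (SE 0.70, edgeR adjusted p = 0.78) passed, and PEG minus ABA was 1.82 (edgeR adjusted p = 0.0441), which was lost without any 1 ABA library and without PEG replicate 2 or 3 (1.44 to 1.88). The ABA value passed without MS control replicate 3 (-2.07, edgeR adjusted p = 0.0198) and without PEG replicate 1 (-1.59, edgeR adjusted p = 0.0131). Without these 2 libraries the values were -2.06 under ABA, 0.28 under PEG and 2.35 for PEG minus ABA. They are given as a description without p, as both libraries were picked by this gene's own values. The fits without 1 of them share this limit. *Manes.14G034800* (2829341 to 2829919), between it and *Manes.14G034900*, moved otherwise. It had 1.74, 0.813 and 0.738 FPKM in the MS control, 1.98, 2.31 and 2.55 FPKM under ABA and 4.18, 4.54 and 5.12 FPKM under PEG, and rose by 1.14 (edgeR adjusted p = 0.00774) and 1.96 (edgeR adjusted p = 6.01e-05) on the log2 scale.

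On chromosome 6, *Manes.06G136300* (24143202 to 24144064, nearest to AT5G62350) was the most abundant of its 4 neighbours. It had 8.57, 9.42 and 8.77 FPKM in the MS control, 23.9, 20.5 and 23.5 FPKM under ABA, and 64.5, 60.5 and 58.9 FPKM under PEG. All 3 groups were apart, and it rose by 1.40 under ABA (SE 0.08, edgeR adjusted p = 2.15e-08) and by 2.65 under PEG (SE 0.08, edgeR adjusted p = 4.92e-11). PEG was above ABA by 1.24 (edgeR adjusted p = 8.94e-09). *Manes.06G136100* (24139667 to 24140343, nearest to AT5G62360) had 3.93, 2.98 and 3.79 FPKM, 2.59, 1.69 and 1.88 FPKM, and 8.12, 9.76 and 8.48 FPKM in the same order of groups. It fell under ABA by 0.73 on the log2 scale (edgeR adjusted p = 0.00945) and rose under PEG by 1.17 (edgeR adjusted p = 5.79e-05), while its neighbour *Manes.06G136200* did the opposite. *Manes.06G136000* (24124046 to 24124654, nearest to AT5G62360) had 1.3, 0.662 and 0.902 FPKM in the MS control, 1.44, 1.15 and 1.87 FPKM under ABA and 3.98, 3.94 and 3.32 FPKM under PEG. It rose under PEG by 1.84 (edgeR adjusted p = 7.63e-05). Its ABA value of 0.70 (edgeR adjusted p = 0.0747) did not pass, but did without MS control replicate 1 (0.96, edgeR adjusted p = 0.0399), and the ranges of both groups overlapped.

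On chromosome 2, next to the abundant *Manes.02G034900*, lie *Manes.02G034800* (2690687 to 2691789, nearest to AT5G62360) and *Manes.02G034700* (2681461 to 2684352, nearest to AT4G25260). *Manes.02G034800* had 32.9, 31.0 and 29.9 FPKM in the MS control, 29.9, 28.3 and 28.5 FPKM under ABA, and 0.214, 16.5 and 15.6 FPKM under PEG. All 3 PEG libraries were below all others, PEG replicate 1 by far. Its fall under PEG was 1.67 on the log2 scale (SE 0.59, edgeR adjusted p = 0.0243). The value was -1.09 without PEG replicate 1, given without p because the library was picked by this gene's own values. So the fall was opposite to the rise of *Manes.02G034900* with and without this library. The fall did not pass with DESeq2 (adjusted p = 0.161), with robust dispersions (edgeR adjusted p = 0.105) or without MS control replicate 1 (edgeR adjusted p = 0.0515). *Manes.02G034700* had 1.26, 0.848 and 1.66 FPKM in the MS control, 3.27, 1.79 and 4.62 FPKM under ABA, and 1.84, 1.59 and 1.16 FPKM under PEG. The ABA libraries were all above the MS control libraries but spread widely, and the rise was 1.40 on the log2 scale (SE 0.35, edgeR adjusted p = 0.00417).

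On chromosome 1, *Manes.01G074900* (20059937 to 20060893, nearest to AT5G62360) had 43.0, 39.6 and 42 FPKM in the MS control, 54.5, 50.3 and 52.4 FPKM under ABA, and 23.6, 23.8 and 21.9 FPKM under PEG. The 3 groups did not overlap, with ABA highest and PEG lowest. It rose under ABA by 0.40 on the log2 scale (SE 0.05, edgeR adjusted p = 3.78e-05) and fell under PEG by 0.98 (SE 0.05, edgeR adjusted p = 1.67e-08). Its neighbour *Manes.01G074800*, nearest to AT4G25260, stayed at 0.312 to 1.14 FPKM in all libraries and passed no test.

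AT5G62360 was the nearest Arabidopsis gene of 7 PMEI genes, the largest such group, and all 7 were tested. They spanned 0.954 FPKM (*Manes.06G136000*) to 197 FPKM (*Manes.02G034900*) as means of the MS control. Between PEG and ABA, the difference was tested for each gene, and all 7 passed. PEG was higher by 0.82 to 3.23 on the log2 scale in *Manes.02G034900*, *Manes.06G136000*, *Manes.06G136100*, *Manes.14G034800* and *Manes.14G034900*. PEG was lower in *Manes.01G074900* (-1.38) and *Manes.02G034800* (-1.62, and -1.04 without PEG replicate 1). The call of *Manes.02G034800* was lost with DESeq2 (adjusted p = 0.163), with robust dispersions (edgeR adjusted p = 0.11) and without ABA replicate 1 (-1.60, edgeR adjusted p = 0.0571). The 7 genes thus did not all differ in the same direction. Over all 22 PMEI genes, 9 were higher and 7 lower under PEG than under ABA, together 72.7%, against 74.7% of all genes tested (39.1% higher and 35.6% lower). Differences of at least 2-fold were found for 12, 7 higher and 5 lower under PEG, against 28.9% of all genes tested (16% higher and 12.9% lower). FPKM ranges did not overlap for 13, 9 higher and 4 lower, against 79.1% (51.6% higher and 27.6% lower).

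**Figure D4:**
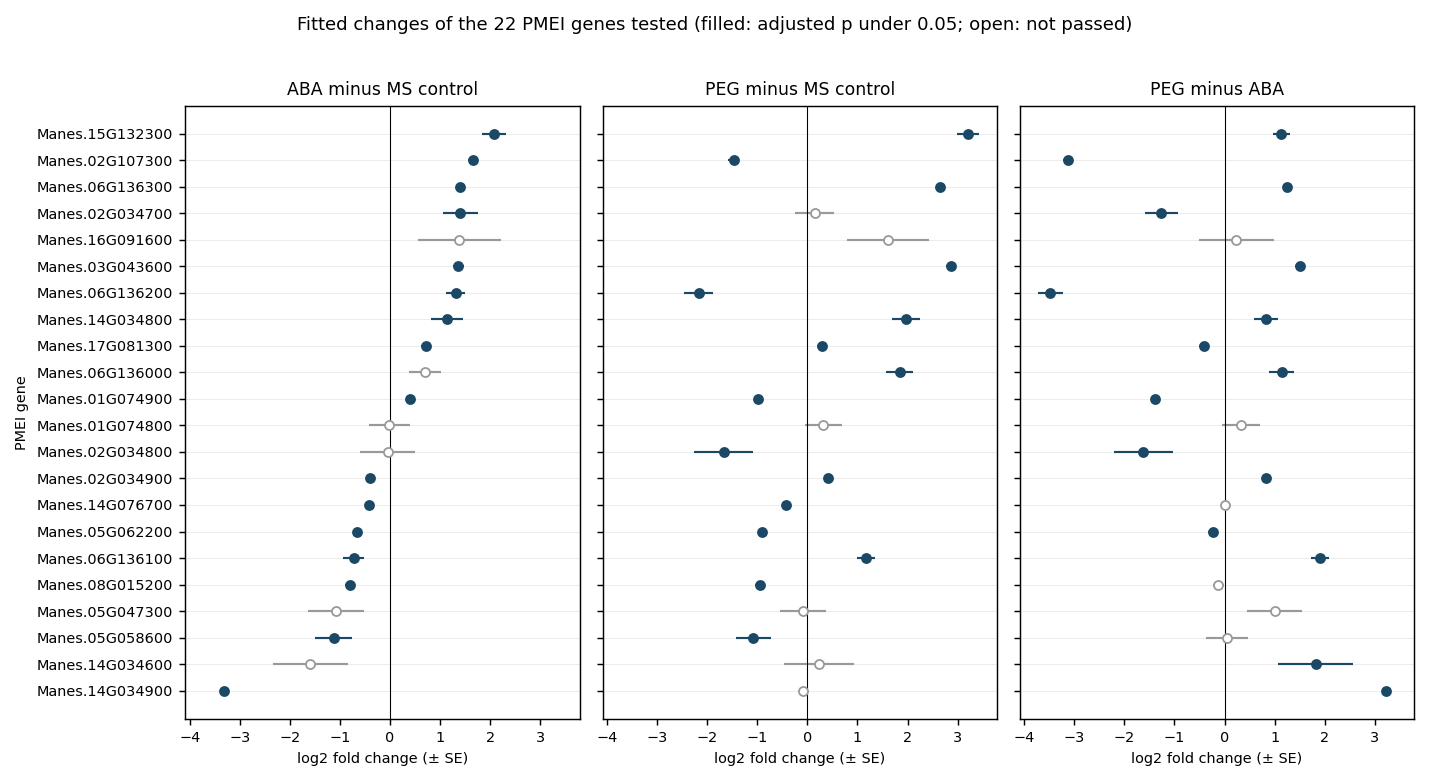
Points give fitted log2 fold changes of the 22 PMEI genes tested and bars their SEs, with filled points for an adjusted p under 0.05, ordered by the ABA value. *Manes.02G107300* and *Manes.06G136200* lie right of 0 under ABA and left of 0 under PEG, and *Manes.14G034900* stands alone at -3.31 under ABA.

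A further 3 genes, none with a tested PMEI neighbour, were lower in both treated groups than in the MS control, and they are given as mean ± SD of n = 3 libraries. *Manes.05G062200* (nearest to AT3G62820) went from 29.4 ± 2.2 FPKM to 17.8 ± 1.24 FPKM under ABA and 17.3 ± 0.529 FPKM under PEG. *Manes.08G015200* (nearest to AT3G05741) went from 16.8 ± 1.55 FPKM to 9.14 ± 0.74 FPKM and 9.58 ± 1.0 FPKM. *Manes.14G076700* (nearest to AT3G47670) went from 24.3 ± 0.648 FPKM to 17.3 ± 1.51 FPKM and 19.8 ± 0.638 FPKM. In these 3 genes no treated library reached the lowest MS control library. Their log2 fold changes were -0.66, -0.81 and -0.43 under ABA (edgeR adjusted p = 4.23e-05, 2.47e-05 and 0.000411) and -0.90, -0.94 and -0.43 under PEG (edgeR adjusted p = 2.42e-06, 5.41e-06 and 0.000299). *Manes.05G058600* (nearest to AT5G46940) had 1.24, 0.895 and 1.87 FPKM in the MS control, 0.717, 0.424 and 0.625 FPKM under ABA, and 0.629, 0.856 and 0.588 FPKM under PEG. Its fitted values of -1.13 and -1.08 rest on 46, 20 and 26 reads in the 3 groups. As only the MS control, where it is high, met the limit of the filter in all 3 libraries, they are given as a description. They were -0.79 and -0.74 without MS control replicate 3 and -0.94 under ABA without ABA replicate 2. *Manes.05G047300* (nearest to AT4G00080), which also met this limit in all 3 libraries of the MS control only, had 1.09 ± 0.36 FPKM, 0.490 ± 0.224 FPKM and 1.12 ± 0.706 FPKM and passed no test.

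The genes that were not tested include every PMEI gene nearest to certain Arabidopsis genes. None of the 3 genes nearest to AT4G02250 had a read, and the 4 genes nearest to AT1G02550 had at most 5 reads each. The 2 genes described as pectin methylesterase inhibitor 2, *Manes.02G182200* and *Manes.18G093900*, had 6 and 5 reads over the 9 libraries. PMEI2 is known in Arabidopsis from pollen. Where no read was counted, an expected count of up to about 3 reads over the libraries remains possible. Genes with 0 or few reads were thus undetectable or nearly so at this depth, not shown to be absent.

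A number of PMEI genes lay near genes of the enzymes that the family is known to inhibit. Of the 42, 14 (33.3%) had a *MePME* within 10 gene models, against 3.27% of all genes of the table other than the *MePMEs*. Neighbouring PMEI genes were counted singly, so the 14 include a group of 4 on chromosome 6 and groups of 2 on chromosomes 1 and 8. They are thus fewer separate places than genes. The closest was *Manes.09G173500*, with 3.24 kb between it and the type-Ⅰ *MePME58*, and it had no read. All 4 genes on chromosome 6 lie within 5 gene models of the type-Ⅰ *MePME44*, with the nearest, *Manes.06G136000*, 8.26 kb away. *Manes.15G132300* lies 10.5 kb from *MePME79* and *Manes.17G081300* 22.7 kb from *MePME87*, so both genes nearest to AT1G14890 have a type-Ⅰ *MePME* within 4 gene models. *Manes.03G043600* lies 16.7 kb from the type-Ⅱ *MePME24*. These are distances along the chromosome, and what a PMEI protein binds was not measured.

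The other genes that act on pectin also moved in both directions, and their lists are described by counts, to be read against the 32.9% of all genes tested that rose and 33.4% that fell under ABA, and the 35.6% and 35.1% under PEG. Of 25 type-Ⅰ *MePMEs* tested, 8 rose and 12 fell under ABA, and 6 rose and 13 fell under PEG, with median log2 fold changes of -0.20 and -0.31. The summed level of all 44 was 465 to 481 FPKM in the MS control, 746 to 755 FPKM under ABA and 308 to 319 FPKM under PEG, so the sum and the median differ in sign under ABA. Of 7 type-Ⅱ *MePMEs* tested, 3 rose and 3 fell under ABA, and 5 rose and 2 fell under PEG. All 3 pectate lyases tested, which cut demethylesterified pectin, rose under PEG, and under ABA 2 rose and 1 fell. The summed level of all 8 pectate lyases was 7.95 to 8.25 FPKM in the MS control, 13.2 to 15.3 FPKM under ABA and 73.2 to 76.7 FPKM under PEG. Of 6 genes with polygalacturonase in their description, 2 of which are polygalacturonase inhibiting proteins, 3 rose and 2 fell under ABA, and 4 rose and 2 fell under PEG. Of 10 pectin acetylesterases, 3 rose and 3 fell under ABA, and 5 rose and 3 fell under PEG. Of 25 galacturonosyltransferases, which build the pectin backbone, 8 rose and 13 fell under ABA, and 5 rose and 10 fell under PEG.

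Genes described as inhibitors of fructosidase, the invertase inhibitors of the same superfamily, were led by 1 gene. Of 9 such genes 2 were tested. *Manes.03G207100* had a mean of 328 FPKM in the MS control, 344 FPKM under ABA and 72.6 FPKM under PEG, above every PMEI gene in the former 2 groups. It fell under PEG by 2.31 on the log2 scale (SE 0.06, edgeR adjusted p = 1.95e-11), and its ABA value of 0.13 (edgeR adjusted p = 0.0507) did not pass. Its neighbour *Manes.03G207000*, a PMEI gene by description, had 18 reads in all. *Manes.12G154100* rose from a mean of 10.3 FPKM to 28.5 FPKM under ABA and 18.7 FPKM under PEG, by 1.53 (edgeR adjusted p = 5.92e-08) and 0.73 (edgeR adjusted p = 3.58e-05) on the log2 scale. Of 14 genes tested with invertase in their description, mostly neutral or cytosolic forms, 4 rose and 5 fell under ABA, and 4 rose and 7 fell under PEG. The others are described only as arabinanase/levansucrase/invertase. None is described as a cell wall or vacuolar invertase, so these counts do not cover the enzymes that the inhibitors are named for.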

How the data were processed

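The 9 libraries were grouped by their sample labels, and table columns were matched to libraries by the names in the labels. The authors deposited read counts per gene, whole numbers that are not normalized, and FPKM values. Of the software, HISAT2 2.0.4 and StringTie 1.3.0 appear in the submitters' processing notes, without roles. Which counter, strand setting and filters were used is not stated there or in the study's methods. The table's positions of all 89 *MePMEs* equal those that the study lists for cassava genome version 6.1.

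The test was edgeR's quasi-likelihood test (edgeR 4.0.16, R 4.3.3), run with 1 mean per group over all libraries at once, after filterByExpr (minimum count 10, 23984 genes kept) and TMM scaling. Adjusted p-values are by Benjamini-Hochberg across those genes, and 0.05 was the threshold. As a check for duplicated libraries, the median per-gene chi-square of replicate pairs was 0.662 to 0.843 against 0.455 from sampling, and all libraries were kept.

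Alternatives were other scalings, filters, DESeq2 1.42.0, limma 3.58.1 on log2(FPKM + 1), a replicate block, fits of 2 groups, a 2-fold limit, and leaving out each library. Robust dispersions and leaving out 2 pairs of libraries were added after seeing the data. PMEI genes given in every library passed under ABA or PEG with at least 2-fold and a mean of at least 1 FPKM in a group, or were among the 6 with the highest means. Others that passed are given more briefly. *Manes.16G091600* is given in every library outside this rule, chosen after its values were seen. The members and lists were chosen with earlier results of these data known. Lists are search terms for descriptions, and type-Ⅰ and type-Ⅱ *MePMEs* are as the study lists them. No sequences are printed.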

Additional observations from a re-analysis of the deposited data

How the results depend on the processing

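Over all alternatives other than the 2-fold limit, 15 to 18 PMEI genes changed under ABA, 13 to 17 under PEG and 13 to 17 between PEG and ABA, against 16 in each. The share of all genes moved with the setting too, over 54.4% to 67.0%, 58.5% to 71.4% and 62.0% to 76.4%, lowest with no filter, where 32 PMEI genes were tested. Leaving out 1 library gave 15 to 17, 15 to 17 and 14 to 16. With a fold of at least 2 the counts were 9 under ABA, of which 2 lower, and 10 under PEG, of which 4 lower, against 19.4% and 22.1% of all genes. The fit with the replicate number as a replicate block gave 16 genes under ABA (9 higher and 7 lower), 16 under PEG and 14 between PEG and ABA, against 65.3%, 69.7% and 73.7% of all genes. Deviations of same-numbered libraries correlated at -0.0385 to 0.0682, so no pairing by number was seen. With few libraries per group this cannot exclude a pairing.

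Signs turned only for values that had not passed. Leaving out 1 library gave a range of -0.07 to 0.42 for *Manes.02G034700* under PEG, -0.24 to 0.76 for *Manes.14G034600* under PEG, -0.15 to 0.21 for *Manes.05G058600*, -0.06 to 0.06 for *Manes.14G076700* and -0.20 to 0.79 for *Manes.16G091600*, the latter 3 for PEG minus ABA. *Manes.02G034700* under PEG was -0.07 without MS control replicate 2, 0.00 without PEG replicate 1 and -0.09 without MS control replicate 2 and PEG replicate 2. *Manes.14G034600* under PEG was -0.24 without MS control replicate 3, -0.16 without PEG replicate 2 and -0.09 without PEG replicate 3. *Manes.14G034900* under PEG was 0.05 with no scaling beyond library size and with limma. For PEG minus ABA, *Manes.05G058600* was -0.15 without ABA replicate 2, -0.14 without PEG replicate 2 and -0.13 without the pair. *Manes.08G015200* was 0.07 with no scaling and 0.06 with limma. *Manes.14G076700* was 0.19 with both, where it passed, and 0.00, 0.06, 0.02 and 0.03 without MS control replicate 2, ABA replicate 2, PEG replicate 2 and the pair. *Manes.16G091600* was -0.36 with limma, -0.30 with the block, -0.12 without PEG replicate 1 or with MS control replicate 3 also left out, and -0.20 without PEG replicate 3. With no scaling beyond library size the median of all genes was -0.07 under ABA, 0.14 under PEG and 0.24 for PEG minus ABA.

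The values of *Manes.05G058600* under ABA and PEG did not pass with DESeq2 (adjusted p = 0.0812 and 0.0687). Depth limits the 20 genes that were not tested and those with under 1 FPKM. *Manes.05G062200* was lower under PEG than under ABA by 0.24 (adjusted p = 0.0315), which did not pass without ABA replicate 2 (-0.20), ABA replicate 3 (-0.22), PEG replicate 1 (-0.22) or PEG replicate 3 (-0.23), with the block (-0.24), DESeq2 (-0.27), limma or no scaling (both -0.04). PEG minus ABA of *Manes.14G034600* lost the threshold without any 1 ABA library (1.79 to 1.88), PEG replicate 2 (1.44) or PEG replicate 3 (1.51), with DESeq2 (1.80), limma (1.38), the block (1.72) or robust dispersions (1.82). PEG minus ABA of *Manes.17G081300* was -0.21 with no scaling and did not pass. In all of these the cause was not tested.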
